A study of Mus musculus with 12 samples.

Results

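The 10 genes described here are imprinted genes of the mouse that are known from muscle: H19, Dlk1, Meg3, Rian, Mest, Peg3, Plagl1, Grb10, Ndn and Sgce. The rule names them by symbol and has no threshold on a measured value, though the list was drawn up with earlier results of these data known, and each matched 1 of the 78298 genes of the count table. They were read in cultures of C2C12, an established line of mouse myoblasts that fuse into myotubes when growth serum is withdrawn. The RGECO group, with 6 libraries, is a C2C12 line with a gene for a fluorescent calcium sensor, and the WT group, with 6 libraries, is C2C12 without it. Both lines grew on gelatin hydrogel carrying methacrylate groups and were differentiated over 14 days in medium with 10% horse serum, 50 ng/ml of the growth factor IGF-1 and 1 mg/ml of aminocaproic acid. Whether the RGECO line is 1 clone, which promoter drives the sensor and where it is inserted are not known from the labels. Poly(A) RNA was sequenced in reads of 50 bases from both ends of each fragment. The comparison sets the sensor line against WT.

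Genomic imprinting leaves 1 parental copy of a gene active and the other silent, through DNA methylation set in the germ line at imprinting control regions. Most imprinted genes lie in clusters, and many act in fetal growth, where paternally expressed genes tend to promote growth and maternally expressed ones to restrain it. In skeletal muscle, H19 and Igf2 are both abundant in the embryo and in differentiating myoblasts, and Dlk1, Peg3 and Ndn are known from muscle progenitors and regeneration.

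H19 and Mest are hosts of microRNAs. The mature sequences, from RefSeq on build GRCm38.p6, are shown because H19 was the most abundant listed gene and Mest the one with the largest fold change among those tested, with the seed (bases 2 to 8) in capitals.
mmu-miR-675-5p: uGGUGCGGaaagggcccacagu
mmu-miR-675-3p: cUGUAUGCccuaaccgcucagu
mmu-miR-335-5p: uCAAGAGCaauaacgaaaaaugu
mmu-miR-335-3p: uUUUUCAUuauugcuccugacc
The miR-675 pair lies in an exon of H19 (chr7:142577112-142577133 for the 5p arm and chr7:142577078-142577099 for the 3p arm, both on the minus strand). The miR-335 pair lies in an intron of Mest (chr6:30741314-30741336 for the 5p arm and chr6:30741354-30741375 for the 3p arm, both on the plus strand). The 4 seeds differ from each other. The microRNA genes themselves had 0 counts in all 11 libraries compared, which hold fragments of poly(A) RNA and are not a measure of mature microRNAs.

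The libraries compared were RGECO replicates 1, 2, 3, 5 and 6, with 5881622 to 11926220 estimated counts, and WT replicates 1 to 6, with 9370322 to 11744314. RGECO replicate 4 held 825 counts in 252 genes and was left out. The shallowest 2 libraries were RGECO replicates 5 and 1. A transcript could be missed below about 3 counts, which is 0.252 to 0.510 counts per 1000000 (CPM) in RGECO and 0.255 to 0.320 CPM in WT libraries. These limits cover counting error only. The summed CPM of 7 myotube markers was 23200 to 29200 in RGECO and 18100 to 24900 in WT libraries, so cultures labelled as myoblasts held myotube transcripts at high levels. Of those 7, 1 was higher in RGECO and 0 were lower. The 5 markers of reserve or satellite cells summed to 197 to 219 CPM in RGECO and 186 to 221 CPM in WT, with 1 higher and 1 lower. The 6 fibroblast-like markers summed to 1350 to 1640 CPM in RGECO and 2220 to 3390 CPM in WT, with 2 higher (Dcn and Ly6a) and 2 lower (Col1a1 and Pdgfrb). That sum rests on Col1a1, a collagen chain, with a mean of 515 CPM in RGECO and 2030 CPM in WT. The sum of the other 5 markers ran the other way, at 892 to 1160 CPM in RGECO and 508 to 698 CPM in WT. That sum rests on Dcn and Ly6a, while Pdgfrb, Pdgfra and Lum had negative log2 fold changes (-1.59, -0.20 and -0.32). The list thus does not move as 1 class. The 5 cycling markers summed to 102 to 164 CPM in RGECO and 120 to 245 CPM in WT, with 0 higher and 1 lower. Of the 4 macrophage markers, Adgre1 had 0 counts in every library and 1, Cd68, was tested, without a call. The 4 summed to 14.9 to 33.6 CPM in RGECO and 12.6 to 29.3 CPM in WT. That sum rests on Cd68, with a mean of 20.4 CPM in both lines, while Csf1r and Ptprc averaged 0.171 CPM or less. In bulk RNA, fewer cells of a type and less RNA per cell cannot be told apart.

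Across the list, 6 genes passed the filter on low counts, and 2 of them, Mest and Grb10, were lower in RGECO than in WT, while 0 were higher. The genes that passed were H19, Mest, Peg3, Grb10, Ndn and Sgce. Each p-value comes from the quasi-likelihood F test of edgeR, adjusted over 13318 genes by Benjamini-Hochberg, with a threshold of 0.05. Over all genes tested, 8.35% were called in either direction and 4.93% were called lower in RGECO, and with 6 genes the share of the list cannot be given closely. The calls over all genes were 456 higher and 656 lower in RGECO by counts, and 360 higher and 266 lower with limma on log2(TPM + 1), where TPM is transcripts per 1000000. The median log2 fold change of RGECO over WT was -0.37 over the 6 genes and -0.01 over all genes tested. An unadjusted p under 0.05 was found for 4 of the 6, against 22.1% of all genes tested, and 3 had a positive and 3 a negative fold change. Ndn passed the filter only through the WT libraries. Plagl1, Rian, Dlk1 and Meg3 did not pass it.

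**Figure D1:**
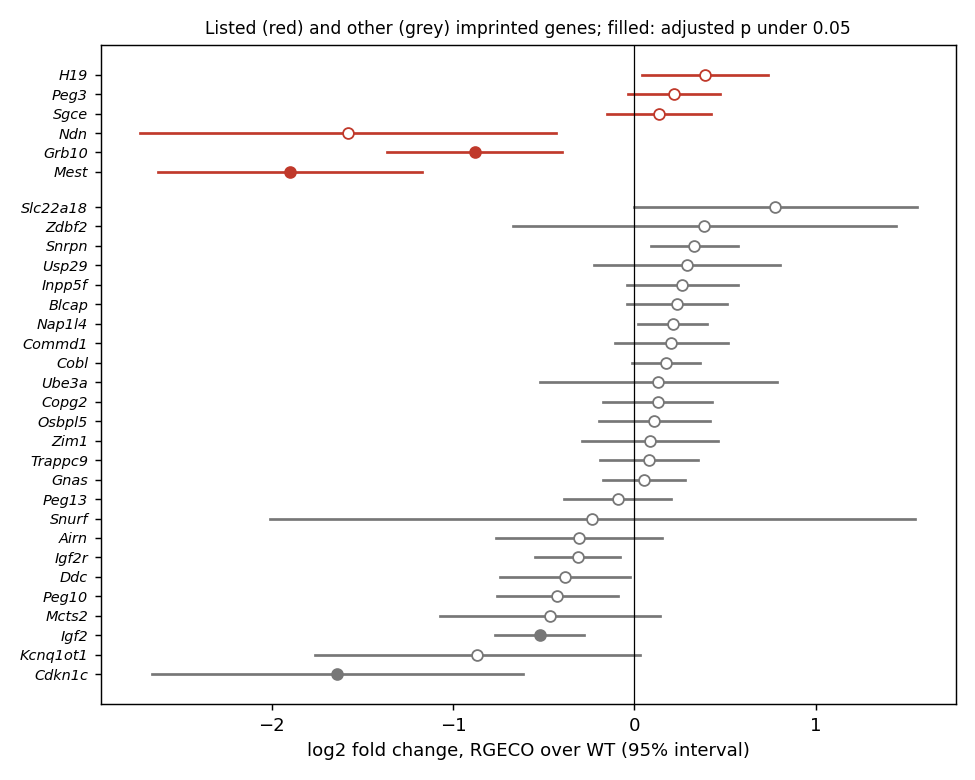
Log2 fold change of RGECO over WT with 95% confidence intervals from edgeR, for the 6 listed imprinted genes that passed the filter on low counts (red) and 25 other imprinted genes (grey); filled points have an adjusted p under 0.05. The filled points are Mest and Grb10 in red and Igf2 and Cdkn1c in grey, all below 0.

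By level per transcript length, the list spanned a wide range. Mean TPM in RGECO libraries was 27977 ± 3140 for H19, 87.7 ± 13.2 for Peg3, 29.1 ± 6.51 for Sgce, 3.05 ± 2.12 for Mest, 2.59 ± 0.66 for Grb10 and 0.338 ± 0.242 for Ndn (SD, n = 5). In WT libraries it was 20004 ± 910 for H19, 74.3 ± 18.2 for Peg3, 24.9 ± 5.66 for Sgce, 6.72 ± 2.51 for Mest, 4.59 ± 0.97 for Grb10, 0.914 ± 0.451 for Ndn and 0.415 ± 0.570 for Plagl1 (SD, n = 6). The order of H19, Peg3 and Sgce held in every library of both lines, with no overlap between neighbours. The ranges of Mest and Grb10 overlapped in both lines, with Mest above Grb10 in 2 of 5 RGECO and 5 of 6 WT libraries. Those of Ndn and Plagl1 overlapped in WT, with Ndn above in 5 of 6 libraries.

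**Figure D2:**
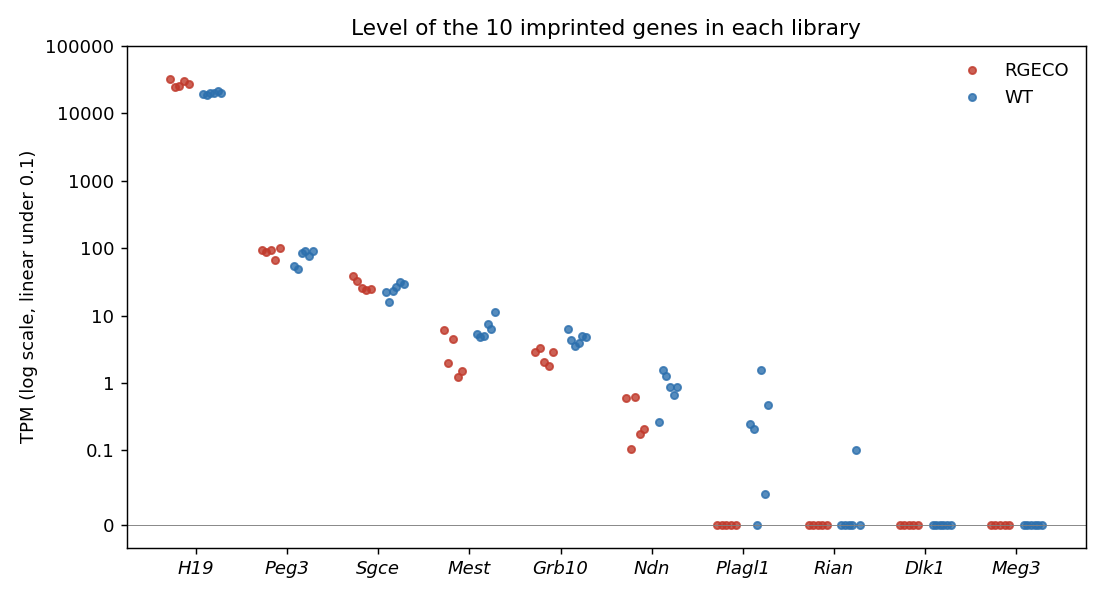
TPM of the 10 listed imprinted genes in each library, on a y axis that is logarithmic above 0.1 and linear below, with RGECO points left of WT points for each gene. H19 stands at 18854 TPM or more in every library, and Dlk1 and Meg3 are listed at 0 in every library.

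H19, a maternally expressed long noncoding RNA, was the gene with the most counts in all 11 libraries. It took 3.93, 2.83, 3.07, 4.42 and 2.98% of the counts in RGECO replicates 1, 2, 3, 5 and 6, and 2.97, 3.17, 2.82, 2.40, 2.46 and 2.11% in WT replicates 1 to 6. The share averaged 3.45 ± 0.70% in RGECO (SD, n = 5) and 2.65 ± 0.40% in WT (SD, n = 6), and the 2 groups overlapped. Scaled by TMM, H19 had 39436, 28452, 30997, 45549 and 29687 CPM in RGECO and 30798, 33777, 27869, 23566, 23638 and 20048 CPM in WT. Its log2 fold change by counts was 0.39 ± 0.16 (SE), and it missed the threshold (edgeR adjusted p = 0.172). The 2 highest RGECO libraries were the 2 shallowest, replicates 5 and 1. Without both, an alternative chosen after seeing the data, the log2 fold change was 0.16 (edgeR adjusted p = 0.659), and without replicate 5 alone it was 0.27 (edgeR adjusted p = 0.364).

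On the TPM scale, H19 stood at 31904, 24734, 25538, 30587 and 27122 in RGECO and at 19329, 18854, 20278, 19885, 21502 and 20179 in WT. Every RGECO library was above every WT library. Ranges of TPM did not overlap between the lines for 2 of the 6 genes, H19 and Grb10, against 5.6% of all genes tested. TPM is a share, and 5 small noncoding RNAs (Rn7s1, Rn7s2, Rn7sk, Rpph1 and Rmrp) took 17.3 to 26.4% of it in RGECO and 25.2 to 35.9% in WT libraries. With those 5 removed and TPM rescaled, a step chosen after seeing the data, H19 averaged 36429 ± 3734 in RGECO (range 31969 to 41211) and 28330 ± 823 in WT (range 26980 to 29394). With limma, the log2 difference was 0.48 on log2(TPM + 1) (adjusted p = 0.0602), 0.48 on log2(TPM + 0.1) (adjusted p = 0.0483) and 0.36 after rescaling (adjusted p = 0.141). The median log2 difference of all genes tested was 0.09 on log2(TPM + 1) and 0.10 on log2(TPM + 0.1), against -0.01 by counts.

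**Figure D3:**
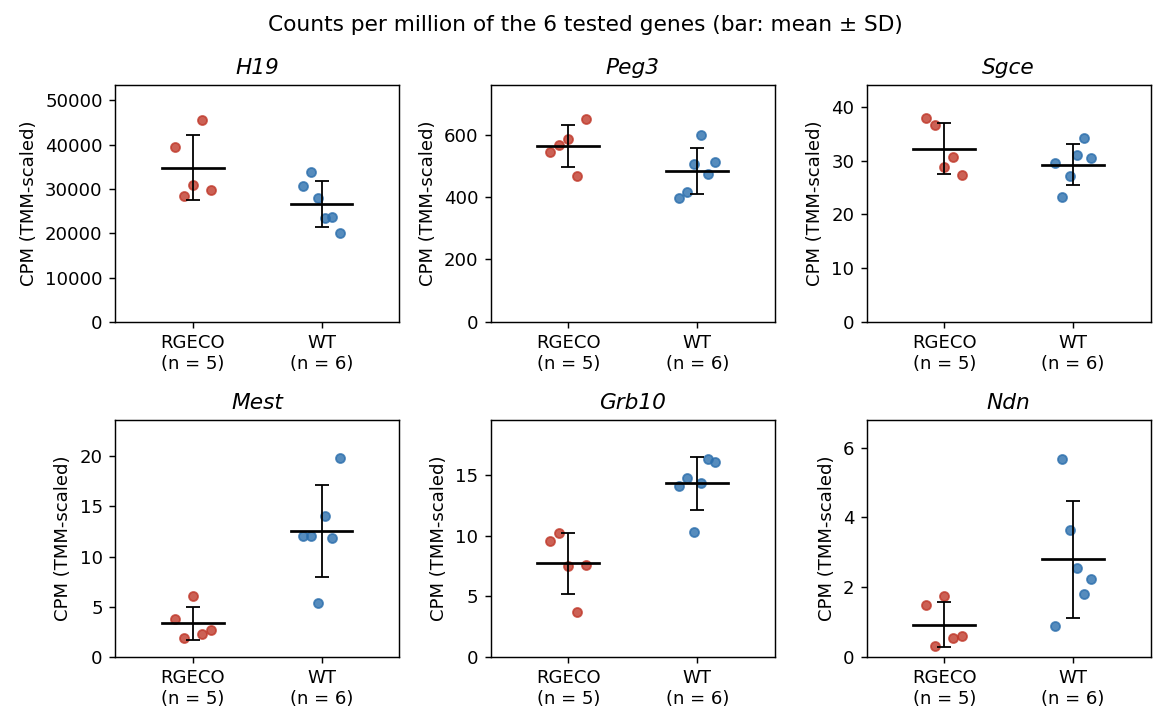
TMM-scaled CPM of the 6 listed genes tested, 1 panel for each gene with its own y axis from 0; each point is a library, RGECO left of WT, and bars give the mean and SD (n = 5 and n = 6). The groups do not overlap for Grb10, and overlap through RGECO replicate 3 and WT replicate 3 alone for Mest.

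Igf2, the paternally expressed fetal growth factor beside H19, shares with it an imprinting control region and enhancers. Igf2 averaged 650 ± 83.6 CPM in RGECO (SD, n = 5) and 934 ± 117 CPM in WT (SD, n = 6). Its CPM ranges did not overlap, which held for 7.97% of all genes tested. In TPM they overlapped, at 249 to 448 in RGECO and 383 to 653 in WT libraries. By counts, Igf2 was lower in RGECO (log2 fold change -0.52 ± 0.12 SE, edgeR adjusted p = 0.00963). This call was lost without the 2 shallowest libraries (-0.45, edgeR adjusted p = 0.0762) and with limma on log2(TPM + 1) (-0.37, adjusted p = 0.244). It was also lost with all 12 libraries (-0.74 ± 0.60 SE, edgeR adjusted p = 0.685). The library added there, RGECO replicate 4, held 825 counts, so that loss says little about Igf2. Part of the Igf2 counts is not whole, so some reads were divided with other annotated transcripts. Igf2 overlaps an antisense gene, Igf2os, and, on its own strand, Gm49394 and Mir483. Which of these shared the reads was not tested. The ratio of H19 to Igf2 in TPM was 88.5, 69.1, 57.0, 68.6 and 108.8 in RGECO replicates 1, 2, 3, 5 and 6. In WT replicates 1 to 6 it was 49.2, 39.3, 31.1, 43.1, 43.2 and 52.6. Every RGECO library had a higher ratio than every WT library. On the log2 scale the ratio averaged 6.26 ± 0.36 in RGECO (SD, n = 5) and 5.41 ± 0.27 in WT (SD, n = 6), a difference of 0.85 or 1.80-fold. A two-sided exact permutation test gave p = 0.00433, the smallest that 462 assignments can give, and 0.00866 after adjustment over the 2 ratios tested. Leaving out 1 library at a time gave differences of 0.72 to 0.95.

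Mest, a paternally expressed gene that encodes an enzyme-like membrane protein of the alpha/beta hydrolase fold and is active in embryonic mesoderm, fell in RGECO. It had 28, 19, 63, 13 and 32 counts in RGECO replicates 1, 2, 3, 5 and 6, which is 3.76, 1.87, 6.05, 2.28 and 2.67 CPM. It had 109, 108, 52, 143, 144 and 204 counts in WT replicates 1 to 6, which is 12.1, 12.04, 5.40, 14.1, 11.8 and 19.8 CPM. In counts and CPM, RGECO replicate 3 was above WT replicate 3, and every other pair of libraries had RGECO below WT. In TPM, RGECO replicate 1, at 6.09, was above WT replicates 1, 2 and 3, at 5.27, 4.79 and 4.98. Every other pair had RGECO below WT in TPM. The log2 fold change was -1.90 ± 0.34 (SE; 95% interval -2.63 to -1.17), or 0.268 of the WT level, with an edgeR adjusted p of 0.00246. With any 1 library left out it stayed called, at -2.25 to -1.71. The call was lost with limma on log2(TPM + 1) (-1.03, adjusted p = 0.0834) and on log2(TPM + 0.1) (-1.31, adjusted p = 0.0869). With the 5 small RNAs removed it was made (-1.20, adjusted p = 0.0456). Mest overlaps Copg2 on the opposite strand, and the strand setting is not stated. The Mest counts were whole in every library, so they show no sign of reads divided with Copg2. Whether reads were assigned wholly to the wrong gene of the pair cannot be checked. Copg2, which encodes a coatomer subunit, had a log2 fold change of 0.13 (edgeR adjusted p = 0.661).

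Grb10, which encodes an adaptor protein that binds the insulin and IGF-1 receptors and dampens their signalling, also fell in RGECO. It is expressed from the maternal copy in most tissues and from the paternal copy in neurons. It stood at 9.52, 10.2, 7.49, 3.68 and 7.61 CPM in RGECO and at 14.1, 14.7, 10.3, 14.4, 16.3 and 16.1 CPM in WT libraries. The groups did not overlap, which among the 6 genes tested held in CPM for Grb10 alone, against 7.97% of all genes tested. The log2 fold change was -0.88 ± 0.23 (SE; 95% interval -1.36 to -0.40), or 0.543 of the WT level, with an edgeR adjusted p of 0.0234. The call did not hold without RGECO replicate 3 (-0.87, adjusted p = 0.0562), without RGECO replicate 6 (-0.86, adjusted p = 0.0531) or without WT replicate 5 (-0.83, adjusted p = 0.0581), all by edgeR. It was also lost with limma on log2(TPM + 1) (-0.65, adjusted p = 0.0700). Its neighbours Ddc, with a log2 fold change of -0.38 (edgeR adjusted p = 0.194), and Cobl, at 0.18 (edgeR adjusted p = 0.266), did not pass the test. Of the fibroblast-like markers, Col1a1 and Pdgfrb were lower in RGECO, as Mest and Grb10 were, while Dcn and Ly6a were higher, and their part in these results was not tested.

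Ndn, a paternally expressed gene of the region linked to Prader-Willi syndrome in humans, encodes a MAGE family protein that promotes myoblast differentiation and survival. Its counts were 11, 3, 18, 3 and 7 in RGECO and 8, 51, 35, 26, 22 and 23 in WT libraries. WT replicate 1 lay within the RGECO range and the other 5 WT libraries lay above it. The log2 fold change was -1.58 ± 0.54 (SE), and it missed the threshold (edgeR adjusted p = 0.0870). Its 95% interval, -2.73 to -0.43, spans small and large differences. The call was made with DESeq2 (adjusted p = 0.0361) and with all 12 libraries (edgeR adjusted p = 0.0240). The library added in the latter, RGECO replicate 4, held 825 counts and carries no information on Ndn, so that call adds no support. Of its neighbours, Magel2 had 0 counts, Mkrn3 had 18 in RGECO and 21 in WT libraries and Peg12 had 3 in RGECO and 41 in WT libraries, all untested. Snrpn, which encodes a splicing protein from the same region, had a log2 fold change of 0.33 (edgeR adjusted p = 0.0892).

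Peg3 and Sgce did not pass the test. Peg3, a paternally expressed zinc finger protein that marks stem and progenitor cells in several tissues, stood at 544, 568, 586, 467 and 652 CPM in RGECO and at 397, 416, 505, 598, 473 and 514 CPM in WT libraries. The log2 fold change was 0.22 ± 0.12 (SE; 95% interval -0.03 to 0.47; edgeR adjusted p = 0.306). With the share of Malat1, a nuclear RNA, as a covariate Peg3 was called higher in RGECO (0.32, edgeR adjusted p = 0.0307). That share was 0.180 to 0.645% of counts in RGECO and 0.156 to 0.898% in WT libraries. Its neighbours Zim1 (0.09, edgeR adjusted p = 0.835) and Usp29 (0.29, edgeR adjusted p = 0.536) did not pass the test.

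Sgce encodes epsilon-sarcoglycan, a membrane protein related to the sarcoglycans of the dystrophin complex. It stood at 37.8, 36.6, 28.8, 30.6 and 27.2 CPM in RGECO and at 29.6, 23.2, 27.1, 31.1, 34.2 and 30.4 CPM in WT libraries. Its log2 fold change was 0.14 ± 0.13 (SE; 95% interval -0.15 to 0.42; edgeR adjusted p = 0.612), an interval inside 2-fold in either direction, as were those of Peg3 and H19. Peg10, a gene derived from a retrotransposon, starts from the same promoter region in the opposite direction. Peg10 averaged 67.4 ± 12.2 CPM in RGECO (SD, n = 5) and 90.7 ± 18.2 CPM in WT (SD, n = 6), and missed the threshold (-0.43, edgeR adjusted p = 0.115). The ratio of Peg10 to Sgce in TPM was 0.324, 0.482, 0.593, 0.407 and 0.543 in RGECO and 0.674, 0.833, 0.519, 0.857, 0.562 and 0.647 in WT libraries. RGECO replicates 3 and 6 lay within the WT range and the other 3 lay below it. The log2 ratio averaged -1.12 ± 0.35 in RGECO (SD, n = 5) and -0.58 ± 0.29 in WT (SD, n = 6). The difference was -0.55 (two-sided exact permutation test, p = 0.0216, and 0.0216 after adjustment over the 2 ratios). With 1 library left out it was -0.64 to -0.42.

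Plagl1, a paternally expressed zinc finger transcription factor that binds control regions of other imprinted genes, had 0 counts in each of the 5 RGECO libraries. In WT replicates 1 to 6 it had 2, 10, 0, 10, 2 and 13 counts, so 5 of 6 WT libraries held it and WT replicate 3 did not. Pooled over libraries this is under the limit of 0.0652 CPM in RGECO (3 counts over the group) and 0.617 CPM in WT. The WT value is 9.47 times that limit, a figure that leaves out counting error and spread among the WT libraries. A two-sided exact permutation test on this gene alone gave p = 0.026, unadjusted. It was below the filter on low counts, and with no filter it was called lower in RGECO (edgeR adjusted p = 0.00905).

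The 3 genes of the Dlk1 cluster on chromosome 12 were near or at 0 in both lines. Dlk1 encodes a paternally expressed transmembrane protein of the Notch ligand type, and Meg3 and Rian are maternally expressed long noncoding RNAs. Dlk1 and Meg3 had 0 counts in all 11 libraries, and Rian had 0 in RGECO and 1 in WT libraries, in WT replicate 5. A count of 0 allows up to 0.0652 CPM over the RGECO group and 0.05 CPM over the WT group. Of 98 genes of the table between Dlk1 and Dio3, by GENCODE M21 on GRCm38, 21 are not small RNA genes and 3 had any count. The interval held 21 counts in RGECO and 53 in WT libraries in all, nearly all of them in Gm3379 and Gm34719. Rtl1, Mirg and Dio3 had 0 counts. Although named here as imprinted genes of muscle, these 3 were not detectable at this depth, or held 1 count. Begain, beside Dlk1, had 0 counts in RGECO and 14 in WT libraries. A ratio of Meg3 to Rian could not be computed.

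Promoter windows of 300 bases, around the gene start, were read from RefSeq on GRCm38.p6 for the genes that were lower in RGECO (Mest and Grb10), for Plagl1, listed at 0 there, and for Peg3, which did not pass the test. Capitals mark the letters TGCCGC on either strand, a core searched because it is the recognition sequence of the imprinting factor ZFP57, which binds it when methylated. The windows are chr6:30737800-30738099 on the plus strand for Mest, chr11:12037371-12037670 on the minus strand for Grb10, chr10:13090582-13090881 on the plus strand for Plagl1 and chr7:6730370-6730669 on the minus strand for Peg3.
Mest: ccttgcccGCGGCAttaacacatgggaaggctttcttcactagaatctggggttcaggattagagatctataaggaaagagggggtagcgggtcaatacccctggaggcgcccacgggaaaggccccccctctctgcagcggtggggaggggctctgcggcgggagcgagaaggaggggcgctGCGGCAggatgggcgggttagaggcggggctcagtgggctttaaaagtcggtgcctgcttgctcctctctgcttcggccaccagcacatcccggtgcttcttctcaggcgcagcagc
Grb10: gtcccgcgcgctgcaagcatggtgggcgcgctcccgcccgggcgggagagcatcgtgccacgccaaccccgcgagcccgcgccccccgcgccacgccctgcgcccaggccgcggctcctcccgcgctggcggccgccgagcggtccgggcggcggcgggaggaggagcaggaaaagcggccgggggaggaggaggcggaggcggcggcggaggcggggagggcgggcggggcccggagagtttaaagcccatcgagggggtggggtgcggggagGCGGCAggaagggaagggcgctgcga
Plagl1: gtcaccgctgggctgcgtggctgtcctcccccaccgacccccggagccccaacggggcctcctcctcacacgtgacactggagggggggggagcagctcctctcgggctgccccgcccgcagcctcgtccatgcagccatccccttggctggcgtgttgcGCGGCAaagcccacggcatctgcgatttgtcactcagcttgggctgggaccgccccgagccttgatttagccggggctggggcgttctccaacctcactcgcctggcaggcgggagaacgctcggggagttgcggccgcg
Peg3: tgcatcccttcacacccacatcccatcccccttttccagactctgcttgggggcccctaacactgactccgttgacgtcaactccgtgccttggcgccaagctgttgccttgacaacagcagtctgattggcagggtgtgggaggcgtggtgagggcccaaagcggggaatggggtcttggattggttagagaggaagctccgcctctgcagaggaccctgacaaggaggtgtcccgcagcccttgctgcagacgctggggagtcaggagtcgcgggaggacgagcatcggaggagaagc
RefSeq gives 1 window each for Plagl1 and Peg3 but 3 for Mest and 2 for Grb10, and of those a window that holds TGCCGC was chosen for print. The other Grb10 window held 0 matches and 9 CpG pairs, and the upstream Mest window held 0 matches and 8 CpG pairs. The Mest window shown held 2 matches and 17 CpG pairs, the Grb10 window 1 match and 45 CpG, the Plagl1 window 1 match and 26 CpG, and the Peg3 window 0 matches and 13 CpG. The Ndn window, not printed, held 0 matches and 11 CpG, though Ndn had a log2 fold change of -1.58. Whether the motif goes with a lower level was not tested. Over the 8 listed genes with an entry, 5 of 12 windows (41.7%), in Meg3, Mest, Plagl1 and Grb10, held TGCCGC, against 11.6% of 32851 windows of all genes. The 2 Mest windows with matches start 3 bases apart and share them. By gene, 4 of the 8 held TGCCGC, against 13.1% of 27025 genes. The motif itself holds a CpG pair, and the 5 windows with it held 13 to 45 CpG, so windows of all genes are not matched to them in CpG. The median CpG number over all windows was 7. The motif CCATNTT, a core of YY1 sites searched on both strands, was in 1 window, downstream in Grb10, against 16.1% of all windows. The E-box CAGCTG, bound by myogenic factors, was in 1 window, upstream in Mest, against 16.3%. A match is a run of letters, and binding and methylation were not measured in these data.

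Effective transcript length is the estimated count divided by TPM, set relative to the median of 11165 genes in each library. It is an indirect sign of whether long or short transcripts of a gene were in use. It also varied among libraries of the same line, so a difference need not mean a change of transcript. It was tested for the 5 listed genes with at least 10 counts in every library, by two-sided exact permutation tests. None of the 5 had an exact p under 0.05 with all 11 libraries and lengths centred on the median, and the exact p-values given here are unadjusted. Relative length was 0.627 to 0.841 in RGECO and 0.606 to 0.833 in WT for H19, with a log2 difference of 0.01 (exact p = 0.883). For Mest it was 0.400, 0.539, 0.794, 1.07 and 1.00 in RGECO and 1.14, 1.17, 0.631, 1.005, 1.10 and 1.063 in WT libraries, a log2 difference of -0.49 (exact p = 0.139). RGECO replicates 1 and 2 had the lowest relative lengths of Mest, on 28 and 19 counts. The log2 differences were 0.07 for Peg3 (exact p = 0.104), -0.01 for Grb10 (exact p = 0.978) and 0.01 for Sgce (exact p = 0.775). An exact p under 0.05 was reached by Peg3 without WT replicate 2 (0.09, exact p = 0.00794) and with lengths centred on the mean (0.08, exact p = 0.0476), and by Mest without WT replicate 3 (-0.62, exact p = 0.0317). The median SD within the WT line over 11165 genes was 0.124 on the log2 scale.

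**Figure D4:**
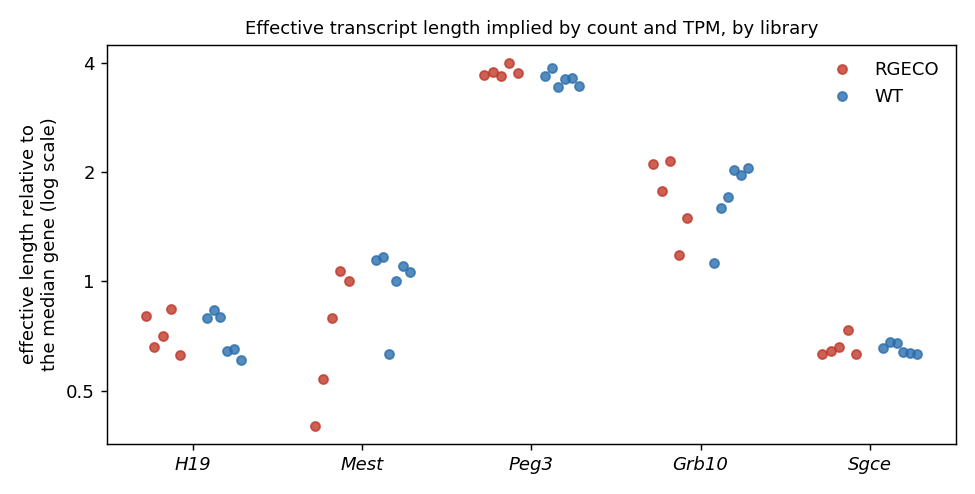
Effective transcript length of 5 listed genes relative to the median gene of each library, on a log axis; each point is a library, RGECO left of WT. The lines overlap for every gene plotted, and the points of Mest spread most, from 0.400 to 1.17.

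Within a line, the SD of log2 CPM was 0.199 for Peg3, 0.199 for Sgce, 0.286 for H19, 0.416 for Grb10, 0.614 for Mest and 0.830 for Ndn, against a median of 0.313 over all genes tested. After the line means were removed, the listed genes did not move as 1 group over the 11 libraries. Pearson's r was lowest between H19 and Peg3 (-0.766) and highest between Grb10 and Sgce (0.416), and all libraries share their depth and composition across genes. Of genes whose mean log2 CPM reached 4, those most like H19 were Zfp385a (r = 0.980), Ccn1 (r = 0.969) and Iscu (r = 0.969). Those most like Peg3 were Flrt2 (r = 0.956), Brwd1 (r = 0.946) and Schip1 (r = 0.935). For Grb10 they were Pmp22 (r = 0.937), Osbpl11 (r = 0.925) and Dap (r = 0.918). For Sgce they were Chp1 (r = 0.922), Atp6v1c1 (r = 0.839) and Marf1 (r = 0.831). For Mest they were Tmem38b (r = 0.856), Il17ra (r = 0.826) and Rwdd4a (r = 0.810), and for Ndn they were Prkag3 (r = 0.925), Rin3 (r = 0.898) and Gon4l (r = 0.883). These are the highest of many values and are given as a description.

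Other imprinted genes of the mouse were read from the same fit. Of 42 named, 40 were matched in the table, 34 had a count and 25 were tested, with 0 higher and 2 lower in RGECO, Igf2 and Cdkn1c. The share called, 8% of the 25, is near the 8.35% of all genes tested. An unadjusted p under 0.05 was found for 7 of the 25 (28%), against 22.1% of all genes tested, and their median log2 fold change was 0.09. Cdkn1c, a maternally expressed inhibitor of cyclin-dependent kinases, averaged 1.77 ± 0.93 CPM in RGECO (SD, n = 5) and 5.50 ± 3.95 CPM in WT (SD, n = 6). Like Ndn, it passed the filter on low counts only through the WT libraries, where it was higher. Its log2 fold change was -1.64 ± 0.48 (SE, edgeR adjusted p = 0.0471). That call was lost without RGECO replicate 1, 3, 5 or 6 and without WT replicate 1, 2, 4 or 6, each left out alone, with edgeR adjusted p of 0.0547 to 0.108. It was kept without RGECO replicate 2 or WT replicates 3 or 5. In the same cluster, Kcnq1ot1, a paternally expressed noncoding RNA, had a log2 fold change of -0.87 (edgeR adjusted p = 0.243).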

How the data were processed

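Poly(A) RNA of 6 RGECO and 6 WT libraries of C2C12 cells was sequenced. The authors deposited estimated counts per gene (not normalised, need not be whole) and TPM per gene (length-corrected and scaled to a common sum), both made with Salmon, by the names and headers of the files. The submitters' processing notes name Salmon, STAR, bedtools 2.25.0 and BWA 0.7.12-r1039, and builds mm10, hg19 and GRCm39, with no role. Neither strand setting nor annotation release is stated there, so how reads of antisense partners were assigned cannot be checked. The members and lists were chosen with earlier results of these data known.

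Estimated counts were rounded and tested with edgeR 4.0.16 (filterByExpr, TMM, robust quasi-likelihood) in R 4.3.3 over 13318 genes, which was tested on simulated data. The common coefficient of variation was 25.2%. CPM values are TMM-scaled. Libraries under 1000000 counts were left out. TPM was tested with limma 3.58.1 on log2(TPM + 1) and log2(TPM + 0.1), and counts also with DESeq2 1.42.0. TPM fold changes are on the log2(TPM + pseudocount) scale, which understates the change of low genes. Ratios and lengths used two-sided exact permutation tests. The text names all 10 genes, the other imprinted genes that passed or adjoin a listed gene, and the 3 genes most like each tested gene. Other settings tried were no filter, DESeq2 size factors, Malat1 and mitochondrial shares as covariates, a replicate block, all 12 libraries and each library left out. Counts of same-line libraries differed by a chi-square per gene of 7.61 or more in each of 25 pairs, so none was treated as deposited more than once. The labels do not call replicates separate cultures, and p-values then reflect only the spread among these libraries, possibly a technical one.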

Additional observations from a re-analysis of the deposited data

Results flagged for a closer look

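Of 27 groups of values checked for a library apart from the rest, 3 were flagged, and chance flags about 1 in 20. For each, the gap of the extreme library to its nearest neighbour is given as a share of the range of its group. The share was taken in CPM for Grb10 and on the log2 scale for the effective lengths. Grb10 in WT was lowest in replicate 3, at 10.3 CPM, with a share of 0.63. The relative effective length of Mest in WT was lowest in replicate 3, at 0.631, with a share of 0.756. The relative effective length of Peg3 in RGECO was highest in replicate 5, at 4.01, with a share of 0.725.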

How the results depend on the processing

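H19, Peg3 and Sgce kept a positive and Mest, Grb10 and Ndn a negative log2 fold change under every alternative run. Against 1112 genes called with the reported settings, DESeq2 called 1674, limma 626 on log2(TPM + 1), 600 on log2(TPM + 0.1), 310 without a filter and 693 after the 5 small RNAs were removed. With the Malat1 or mitochondrial share as a covariate the counts were 2771 and 3133 (1395 higher and 1376 lower, and 1614 higher and 1519 lower, against 456 and 656). With all 12 libraries, 237 were higher and 583 lower. Of the listed genes, limma called 0 on log2(TPM + 1), with or without a filter (4 and 3 had an unadjusted p under 0.05), 1 (H19) on log2(TPM + 0.1), and 4 (Mest, Grb10, Ndn and Peg3) with either covariate, against 2. Leaving out 1 library gave 1 to 2 listed genes called. The labels do not say whether replicate numbers pair the samples. Same-numbered libraries had correlations of deviations of -0.15 to 0.36, the highest for replicate 6. These were not compared with differently numbered libraries, so they cannot decide whether some numbers are paired. With the replicate block, which leaves WT replicate 4 without a partner, 777 genes were called, 1 of them listed (Mest), and Grb10 had an edgeR adjusted p of 0.0643. Blocked, the difference in log2 ratio was 0.85 for H19 to Igf2 (exact permutation p = 0.0625, the smallest that 5 pairs allow) and -0.47 for Peg10 to Sgce (exact permutation p = 0.125). After adjustment over the 5 effective lengths, 0 to 1 passed with 1 library left out (Peg3, without WT replicate 2). By unadjusted exact p, Mest without WT replicate 3 (p = 0.0317) and Peg3 centred on the mean (p = 0.0476) were also under 0.05. Signs near 0 turned: the log2 length difference of H19 ran from -0.040 to 0.066 with 1 library left out and was -0.015 with the block, that of Grb10 from -0.13 to 0.12, 0.0013 centred on the mean and 0.041 with the block, and that of Sgce from -0.026 to 0.030. A minimum of 100 counts left out Mest and Grb10. The causes of these shifts were not tested. Without the 2 shallowest libraries Mest kept its call (-1.83, edgeR adjusted p = 0.0270). Plagl1 and Ndn rest on few counts, and Dlk1, Meg3 and Rian cannot be compared.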
